A study of Danio rerio with 6 samples.

Results

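The genes described here encode the enzymes that make triacylglycerol in its last step, or that can feed that step, in zebrafish embryos. They were chosen by name, as the rows of the deposited gene tables called *dgat2*, *dgat1a*, *dgat1b*, *mogat2*, *MOGAT1* (the name the tables give to *mogat3a*), *mogat3b*, *tmem68* and *tmx1*. These are 8 of the 32520 genes in the tables, and all 8 were among the 22762 genes with enough counts to be tested. RNA was sequenced from 6 pools of zebrafish at 3 days post fertilization (dpf), with 1 pool of homozygous *dgat2*sa13945 mutants and 1 of their wild-type siblings for each of clutches 2, 3 and 4. The sa13945 allele is a chemically induced nonsense mutation early in the coding sequence, and all pools came from in-crosses of heterozygous carriers, so both pools of a clutch were siblings. Each pool held 6 embryos whose heads and tails had been cut off, leaving the yolk sac with its yolk syncytial layer (YSL) and the dorsal trunk. Embryos were presorted by the opacity of the yolk before genotyping, so the mutant pools are mutants with visibly opaque yolks.

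In vertebrates, triacylglycerol is made in the endoplasmic reticulum when a further fatty acid is joined to diacylglycerol by a diacylglycerol acyltransferase (DGAT). DGAT1 and DGAT2 carry out the same reaction but are unrelated in sequence. Zebrafish keep paired copies of *DGAT1* (*dgat1a* and *dgat1b*) and a single *dgat2*. The monoacylglycerol acyltransferases (MOGATs) belong to the DGAT2 family and make diacylglycerol from monoacylglycerol, and some of them can also make triacylglycerol in mammalian cells. TMEM68 is an acyltransferase of a separate kind that can make triacylglycerol in mammalian cells, and TMX1, a thioredoxin-like protein of the endoplasmic reticulum, is its partner there. In the embryo, the YSL takes up yolk lipid, rebuilds triacylglycerol and packs nearly all of it into lipoproteins for export. Storage in lipid droplets is very rare in the wild-type YSL.

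The genotype of the embryos in each pool was read from tail or head DNA by a PCR across the mutation, and since the groups rest on it, the study's primer pair is shown here. The forward primer was designed so that its 3′ end (in capitals) supplies 5 bases of a cutting site for the enzyme BamHI (GGATCC, read on both strands alike). The wild-type allele completes the site and is cut, whereas the mutant allele is not.
*dgat2* sa13945 forward primer: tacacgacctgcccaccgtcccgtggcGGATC
*dgat2* sa13945 reverse primer: accgctgaaatcaagtggag

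The libraries held 45958694 to 59166585 estimated counts on genes. Every marker gene tested for the tissues of the mid-section had counts in every library. Summed over 9 skeletal muscle markers, the level was 86766 to 103912 counts per 1000000 (CPM, scaled by TMM factors), and over 9 lipoprotein genes of the YSL and liver it was 11511 to 21630 CPM. The wild-type pool of clutch 4 stood apart from the other 5 pools in these sums. Its 10 hepatocyte markers summed to 1846 CPM against 2511 to 3439 CPM in the other pools, and its 6 neuron markers to 1106 CPM against 673 to 809 CPM. Values without it are given beside the results it moved most. In such mixed tissue, fewer cells of a type and less RNA per cell cannot be told apart.

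Levels in wild-type siblings were compared in transcripts per 1000000 (TPM), which are scaled for transcript length and so allow a comparison between genes. All 8 transcripts were of moderate abundance, and no gene of the group was dominant. *mogat2* had the highest mean level, at 12.7 ± 4.78 TPM (SD, n = 3 pools), which was above 78.8% of the tested genes. *dgat1b* followed with 10.7 ± 1.12 TPM and *dgat2* with 10.3 ± 8.19 TPM. *mogat3b*, at 8.62 ± 2.47 TPM, *dgat1a*, at 7.47 ± 0.975 TPM, and *MOGAT1*, at 6.26 ± 2.47 TPM, came next. The partners *tmx1*, at 4.49 ± 1.11 TPM, and *tmem68*, at 4.04 ± 0.320 TPM, had the lowest means, but *tmem68* was still above 52.9% of the tested genes. Neighbours in this order were not separated by more than their spread. The ranges of every neighbouring pair overlapped, and each gene was above the next in 2 of the 3 wild-type pools. Without the wild-type pool of clutch 4, *dgat2* came first (14.2 TPM), and without that of clutch 2, *dgat1b* came first (10.1 TPM) while *dgat2* was at 6.04 TPM. The order is one of TPM only, since by CPM, which is not scaled for length, *dgat1b* came first and *MOGAT1* last.

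**Figure D1:**
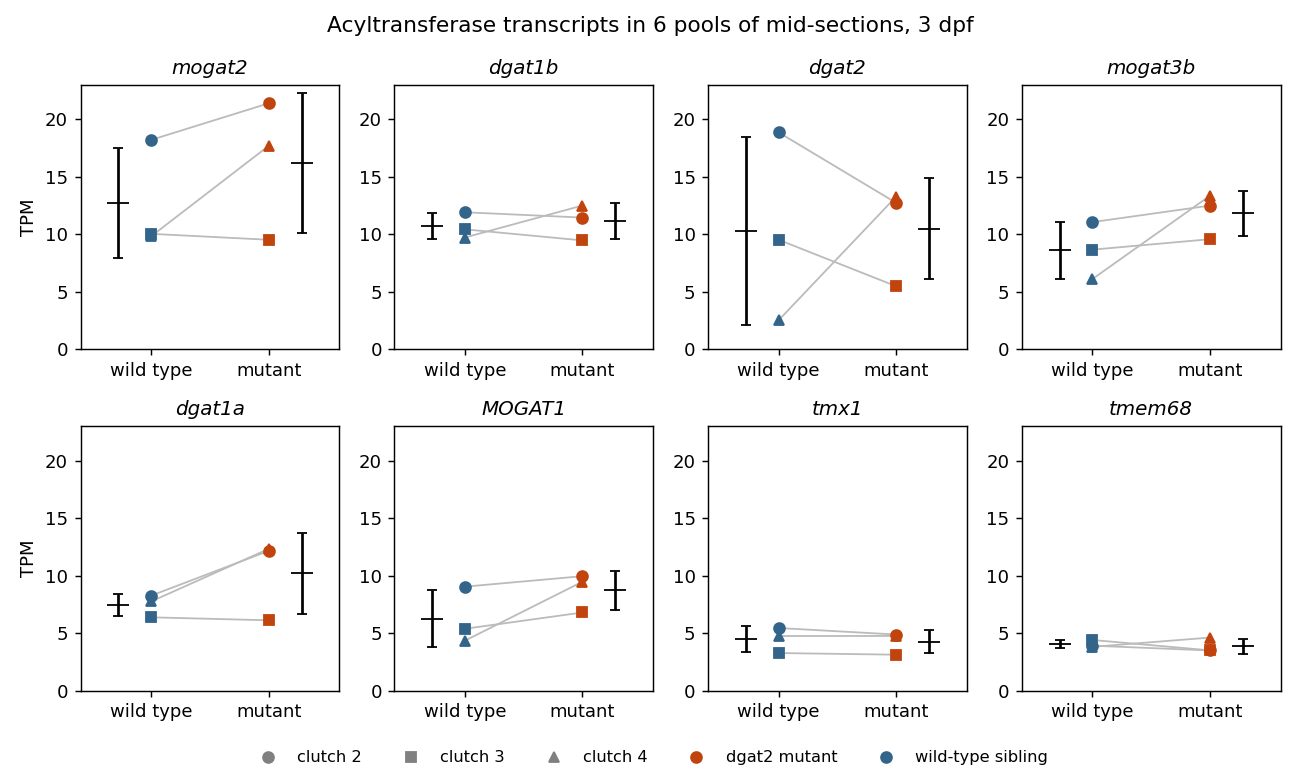
Level of each of the 8 transcripts in TPM (vertical axis, the same in each panel) in wild-type (blue) and mutant (orange) pools, with pools of the same clutch joined by a grey line and bars giving the mean ± SD (n = 3 pools). Wild-type *dgat2* ran from 2.54 to 18.9 TPM, whereas *tmem68* stayed between 3.49 and 4.62 TPM in all 6 pools.

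*dgat2*, the mutated gene (ENSDARG00000018846, chromosome 10), was the most variable of the 8 transcripts. Its level was 18.9, 9.53 and 2.54 TPM in the wild-type pools of clutches 2, 3 and 4, and 12.7, 5.49 and 13.3 TPM in the mutant pools of the same clutches. The wild-type pool of clutch 4 was the lowest of all 6 and that of clutch 2 the highest, so the mutant pools fell inside the wild-type range. Between wild-type pools the level differed 7.42-fold, or 1.98-fold without that of clutch 4. Over all 3 the SD of log2 CPM was 1.37, which was above that of 97.6% of the tested genes. Between mutant pools it differed 2.42-fold, with an SD of 0.64 on the log2 CPM scale, above that of 90.0% of the tested genes. Counting error was small beside this, since the lowest count, 209, has a 95% Poisson interval of 182 to 239, which covers counting error only.

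The mutant *dgat2* transcript was lower than that of wild-type siblings in clutches 2 and 3 and higher in clutch 4. By edgeR's quasi-likelihood test the log2 fold change over all pools was 0.10 (standard error 0.56, 95% interval -1.18 to 1.39). Without the wild-type pool of clutch 4 it was -0.34 (standard error 0.37). Leaving out all of clutch 4 and blocking by clutch, a comparison added after the data were seen, gave -0.53 (standard error 0.13, unadjusted p = 0.0036 and adjusted p = 0.188 by edgeR). The blocked value was 0.30 (standard error 0.49) over all pools, 0.74 with clutch 2 left out and 0.86 with clutch 3 left out. The sign also turned without the mutant pool of clutch 2 (-0.09) or of clutch 4 (-0.04), so the overall direction of the *dgat2* difference was not settled by these pools. The low *dgat2* of the wild-type pool of clutch 4 came together with its low hepatocyte and high neuron marker sums given above, and the part of tissue composition in it was not tested. With that pool included, the summed hepatocyte markers were higher in wild-type than in mutant pools of clutches 2 and 3 and lower in clutch 4, by log2 differences (mutant minus wild type) of -0.28, -0.41 and 0.62, in the same direction as *dgat2* in each clutch. Taken singly over all pools, 9 of the 10 hepatocyte markers had a positive log2 fold change and *tfa*, a transferrin, had -0.35, so the sum does not stand for most of them.

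*dgat1a* and *dgat1b*, the paired copies of *DGAT1*, had an SD of log2 CPM of 0.18 and 0.11 between wild-type pools. For *dgat1a* this was above that of 40.0% of the tested genes. Between mutant pools the SD was 0.50 for *dgat1a* and 0.25 for *dgat1b*, above that of 84.7% and 62.8% of the tested genes. *dgat1a* (ENSDARG00000103503, chromosome 19) was at 8.26, 6.38 and 7.76 TPM in wild-type pools of clutches 2, 3 and 4, and at 12.2, 6.12 and 12.3 TPM in mutant pools. The mutant pools of clutches 2 and 4 were above all wild-type pools, while that of clutch 3 was the lowest of the 6 in TPM. In CPM the differences within clutches were 0.74, 0.02 and 0.45 on the log2 scale, and the log2 fold change was 0.45 (standard error 0.22, 95% interval -0.06 to 0.96). Blocking by clutch gave 0.41 (standard error 0.14, unadjusted p = 0.0219, adjusted p = 0.457 by edgeR).

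*dgat1b* (ENSDARG00000054914, chromosome 16) was at 11.9, 10.4 and 9.73 TPM in wild-type pools and at 11.5, 9.48 and 12.5 TPM in mutant pools, with groups that overlapped. Its log2 fold change was 0.14 (standard error 0.14, 95% interval -0.18 to 0.47), and its SD of log2 CPM between wild-type pools was above that of 20.9% of the tested genes. The effective transcript length that Salmon used for *dgat1b* varied between pools, from 91.4% to 114% of its mean, so the isoform mix estimated for it was not constant. Lengths for *dgat1a*, *MOGAT1*, *mogat3b* and *tmx1* were constant over the pools to within rounding. With length offsets the log2 fold change of *dgat1b* was 0.080.

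All 3 MOGAT genes had a higher mean level in mutant than in wild-type pools, though none passed the adjustment described below. *mogat3b* (ENSDARG00000003635, chromosome 5) was at 11.1, 8.68 and 6.12 TPM in wild-type pools of clutches 2, 3 and 4, and at 12.5, 9.58 and 13.4 TPM in mutant pools. In TPM the groups overlapped, since the wild-type pool of clutch 2 was above the mutant pool of clutch 3. In CPM, where libraries are scaled by TMM, all mutant pools (14.4 to 17.95 CPM) were above all wild-type pools (9.17 to 14.04 CPM). This was so for 1 of the 8 genes, beside 5.14% of all tested genes. The exact two-sided permutation test on log2 CPM gave p = 0.1 for *mogat3b*, which is the smallest that 3 pools against 3 can give.

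The log2 fold change of *mogat3b* was 0.48 (standard error 0.17, 95% interval 0.09 to 0.88). Without the block, 1 of the 8 genes had an unadjusted p under 0.05, namely *mogat3b*, whose adjusted p by edgeR was 0.874. Of all tested genes, 5.2% had such a p in either direction, and 3.21% had it and were higher in mutants. The wild-type pool of clutch 4 was its lowest pool, and without that pool the log2 fold change was 0.32.

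*MOGAT1* (ENSDARG00000086481, chromosome 23) followed *mogat3b* closely at a lower count. It was at 9.04, 5.38 and 4.35 TPM in wild-type pools and at 9.96, 6.80 and 9.47 TPM in mutant pools, and the mutant pool was the higher in each clutch. Differences within clutches were 0.32, 0.42 and 0.91 in log2 CPM. The log2 fold change was 0.52 (standard error 0.24, 95% interval -0.02 to 1.07), and 0.36 without the wild-type pool of clutch 4. The groups overlapped in both units.

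*mogat2* (ENSDARG00000019228) is the neighbour of *dgat2* on chromosome 10, with no other protein-coding gene between them in the RefSeq order of the assembly GRCz12tu. It was at 18.2, 10.1 and 9.84 TPM in wild-type pools and at 21.4, 9.53 and 17.7 TPM in mutant pools. Clutch 2 gave the highest pool of each genotype. Differences within clutches were 0.39, -0.01 and 0.62 in log2 CPM, so the mutant and wild-type pools of clutch 3 were nearly level. The log2 fold change was 0.36 (standard error 0.28, 95% interval -0.28 to 1.01). Without the mutant pool of clutch 2 it was 0.08, and without the wild-type pool of clutch 2 it was 0.62. The paper proposes that many of its differentially expressed genes on chromosome 10 may differ through linkage to the mutation. Whether linkage had a part in the *mogat2* level was not tested.

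*tmem68* (ENSDARG00000086737, chromosome 2) was at 3.91, 4.41 and 3.81 TPM in wild-type pools and at 3.49, 3.51 and 4.62 TPM in mutant pools. Neither genotype was consistently the higher, and the log2 fold change of 0.01 (standard error 0.14) had a 95% interval from -0.30 to 0.33. Its sign turned with length offsets, to -0.054, where the effective length varied from 93.0% to 108% of its mean. *tmx1* (ENSDARG00000019487, chromosome 13) was at 5.45, 3.27 and 4.75 TPM in wild-type pools and at 4.88, 3.13 and 4.76 TPM in mutant pools. Clutch 3 gave the lowest pool of each genotype, whereas the genotypes were nearly level, and the log2 fold change was -0.06 (standard error 0.20, 95% interval -0.52 to 0.40).

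**Figure D2:**
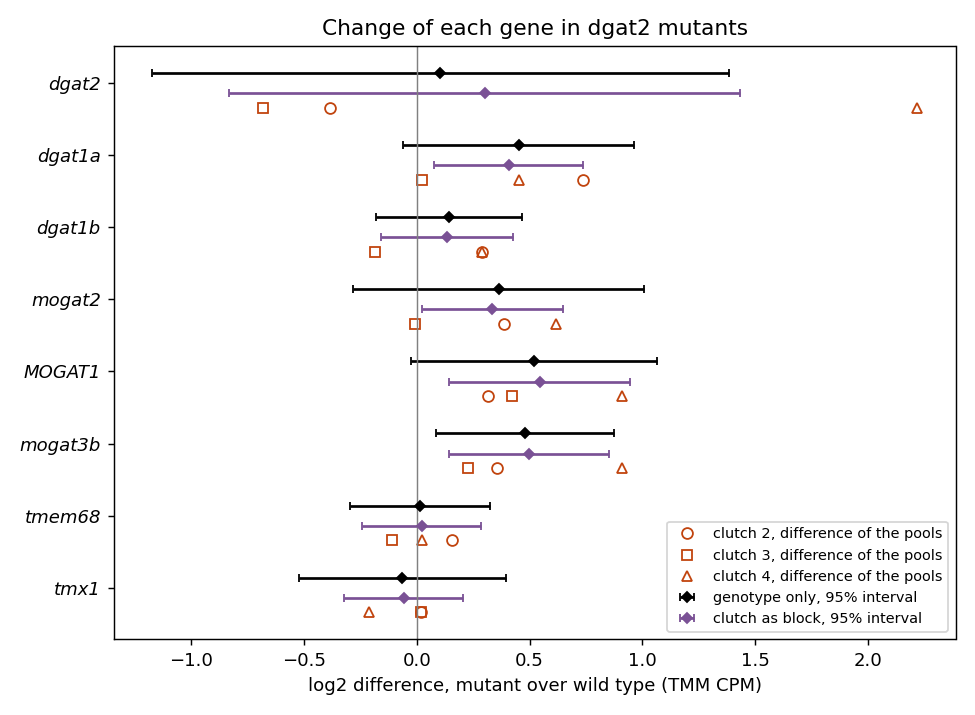
Log2 difference of mutant over wild-type pools for each gene (horizontal axis, TMM-scaled CPM), from edgeR with genotype only (black diamonds) and with the clutch as a block (purple diamonds), with 95% intervals before adjustment, and the difference of the pools in each clutch (open symbols). The clutches gave *dgat2* differences from -0.68 to 2.22, and the *MOGAT1* and *mogat3b* differences were positive in all 3 clutches.

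Across the group, 7 of the 8 log2 fold changes were positive, and their median was 0.25, beside a median of -0.01 over all tested genes. No member passed an adjusted p of 0.05, with or without the block, where edgeR called 0.0132% and 0.338% of all tested genes. By DESeq2 none passed either (0 of 8), where it called 0.566% of genes without and 1.27% with the block, and the smallest adjusted p among the members was 0.525 and 0.263, for *mogat3b*. With the clutch as a block, *dgat1a*, *mogat2*, *MOGAT1* and *mogat3b* were at an unadjusted p under 0.05 and higher in mutants (4 of 8 genes), beside 5.14% of all tested genes, and their smallest adjusted p was 0.357. The mutant pool was the higher in all 3 clutches for *dgat1a*, *MOGAT1* and *mogat3b* (3 of 8 genes) in CPM, beside 14.6% of all tested genes. In TPM this did not hold for *dgat1a*, which was slightly lower in the mutant pool of clutch 3. These members also varied together over the pools, as described next, so their differences are not separate observations. With clutch 4 left out of the blocked comparison, the log2 fold changes were 0.38 for *dgat1a*, 0.19 for *mogat2*, 0.37 for *MOGAT1* and 0.29 for *mogat3b*, and of these only *mogat3b* kept an unadjusted p under 0.05. With clutch 2 left out they were 0.24, 0.31, 0.67 and 0.57, and *dgat1a* and *mogat2* no longer had such a p. With clutch 3 left out they were 0.60, 0.50, 0.61 and 0.63, each with such a p.

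Summed by role, the 3 MOGAT transcripts came to 38.3, 24.1 and 20.3 TPM in wild-type pools of clutches 2, 3 and 4 and to 43.9, 25.9 and 40.5 TPM in mutant pools, so the mutant pool was the higher in each clutch. The exact two-sided permutation test, which took the pools as unpaired, gave p = 0.2. The 3 DGAT transcripts came to 39.1, 26.4 and 20.03 TPM in wild-type pools and to 36.4, 21.1 and 38.1 TPM in mutant pools, and only in clutch 4 was the mutant pool the higher (exact two-sided permutation test, p = 0.8). *tmem68* amounted to 4.36% to 9.45% of the summed DGAT and MOGAT transcripts over the 6 pools.

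Ratios between transcripts within a pool do not depend on its depth, and 5 were compared. *mogat3b* and *MOGAT1* kept nearly the same proportion in every pool, from 1.22 to 1.61 TPM of *mogat3b* for each TPM of *MOGAT1*, with an SD of 0.14 on the log2 scale over the 6 pools. *dgat1a* ranged from 0.611 to 1.06 of the level of *dgat1b*. Its log2 ratio was 0.33 higher in mutant than in wild-type pools, and higher in each clutch, by 0.61, 0.08 and 0.31 (exact two-sided permutation test, p = 0.3). This ratio of TPM carries the effective length of *dgat1b*, which was 114% of its mean in the mutant pool of clutch 2. With estimated counts in place of TPM the mean difference was 0.27. The ratio of *dgat2* to the sum of *dgat1a* and *dgat1b* was the least constant. It was 0.935, 0.567 and 0.145 in wild-type pools of clutches 2, 3 and 4 and 0.539, 0.352 and 0.535 in mutant pools. The mean log2 ratio differed by 0.13 (mutant minus wild type), and by -0.64 without the wild-type pool of clutch 4.

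*dgat2* thus made up 12.7% to 48.3% of the summed DGAT transcripts in wild-type pools and 26.0% to 35.0% in mutant pools. The ratio of *mogat2* to its neighbour *dgat2* was 0.966, 1.05 and 3.87 in wild-type pools and 1.68, 1.74 and 1.33 in mutant pools. In clutches 2 and 3 it was higher in mutants by 0.80 and 0.72 on the log2 scale, and in clutch 4 it was lower by 1.54 than in the wild-type pool. The mean difference was -0.0068, and 0.64 without the wild-type pool of clutch 4. Exact two-sided permutation tests gave p = 0.3 to 1 for the 5 ratios, all adjusted to 1 over the 5 ratios. These tests took the pools as unpaired, although pools of a clutch are siblings. With so few pools they cannot show that the genotypes were alike.

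**Figure D3:**
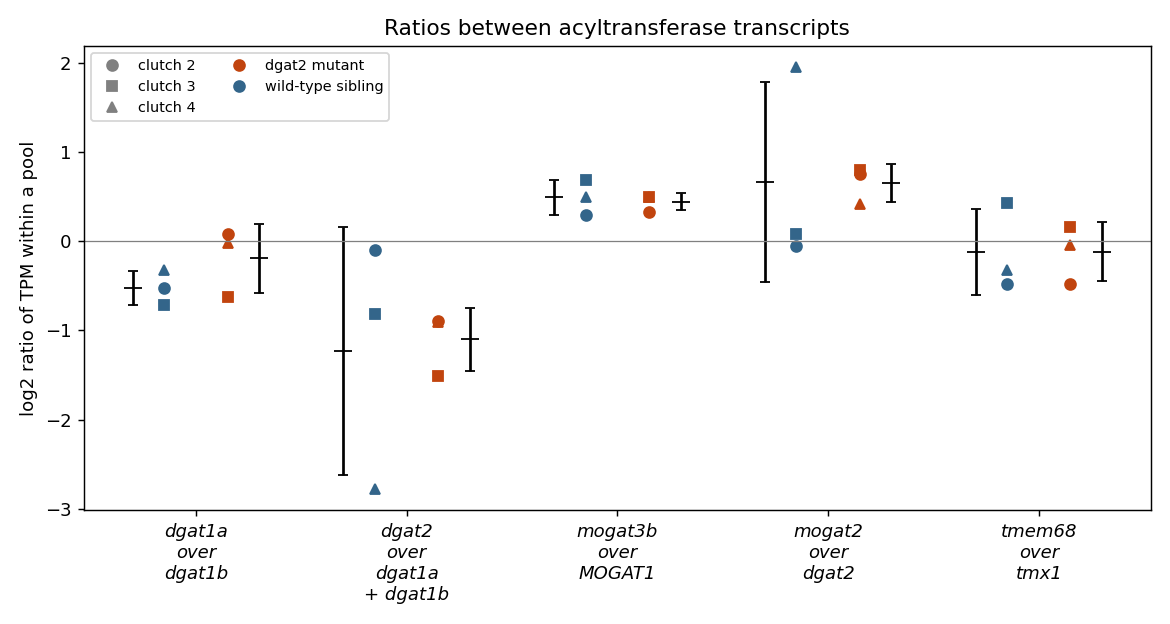
Log2 ratio of TPM within a pool (vertical axis) for 5 pairs of transcripts, in wild-type (blue) and mutant (orange) pools, with black bars for the mean ± SD (n = 3 pools) and symbols for the clutch. The points of *mogat3b* over *MOGAT1* stay between 0.29 and 0.69, while *dgat2* over *dgat1a* plus *dgat1b* reaches down to -2.78 in the wild-type pool of clutch 4.

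Covariation was described by Pearson's r of log2 CPM over the 6 pools for the 28 pairs of the 8 genes. No p is given, because pools of the same clutch are siblings and so not independent. All 15 pairs among the DGAT and MOGAT genes had a positive r, from 0.30 to 0.95 with a median of 0.75. The highest was that of *MOGAT1* with *mogat3b* (r = 0.95, Spearman's rho = 0.94), which stayed between 0.92 and 0.97 when each pool was left out in turn. After removal of the genotype means it was 0.91 and after removal of the clutch means 0.98. *dgat1b* with *mogat2* (r = 0.89) and *mogat2* with *MOGAT1* (r = 0.85) came next.

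The r of *dgat2* with the other DGAT and MOGAT genes was 0.79 for *mogat3b*, 0.78 for *MOGAT1*, 0.73 for *dgat1b*, 0.71 for *mogat2* and 0.30 for *dgat1a*. Its relation with *mogat3b* rested on the wild-type pool of clutch 4, without which r was 0.29, and that with *MOGAT1* dropped to 0.47. *tmem68* went the other way, with a negative r with all 7 other genes, from -0.65 with *mogat2* to -0.18 with *dgat1a*. *tmem68* and its partner *tmx1* had an r of -0.61. After removal of the clutch means 6 of the 7 were positive, with 0.84 for *dgat1b*, and that with *tmx1* was -0.10. In TPM 27 of the 28 pairs had a positive r, and that of *tmem68* with *MOGAT1* was -0.03. The TPM scale differed from TMM-scaled CPM by -0.11 to 0.14 (log2) between libraries, an offset that all genes of a library share. TPM also carries the effective length of each gene, which for *tmem68* varied from 93.0% to 108% of its mean. *tmem68* itself varied only 1.32-fold in TPM.

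**Figure D4:**
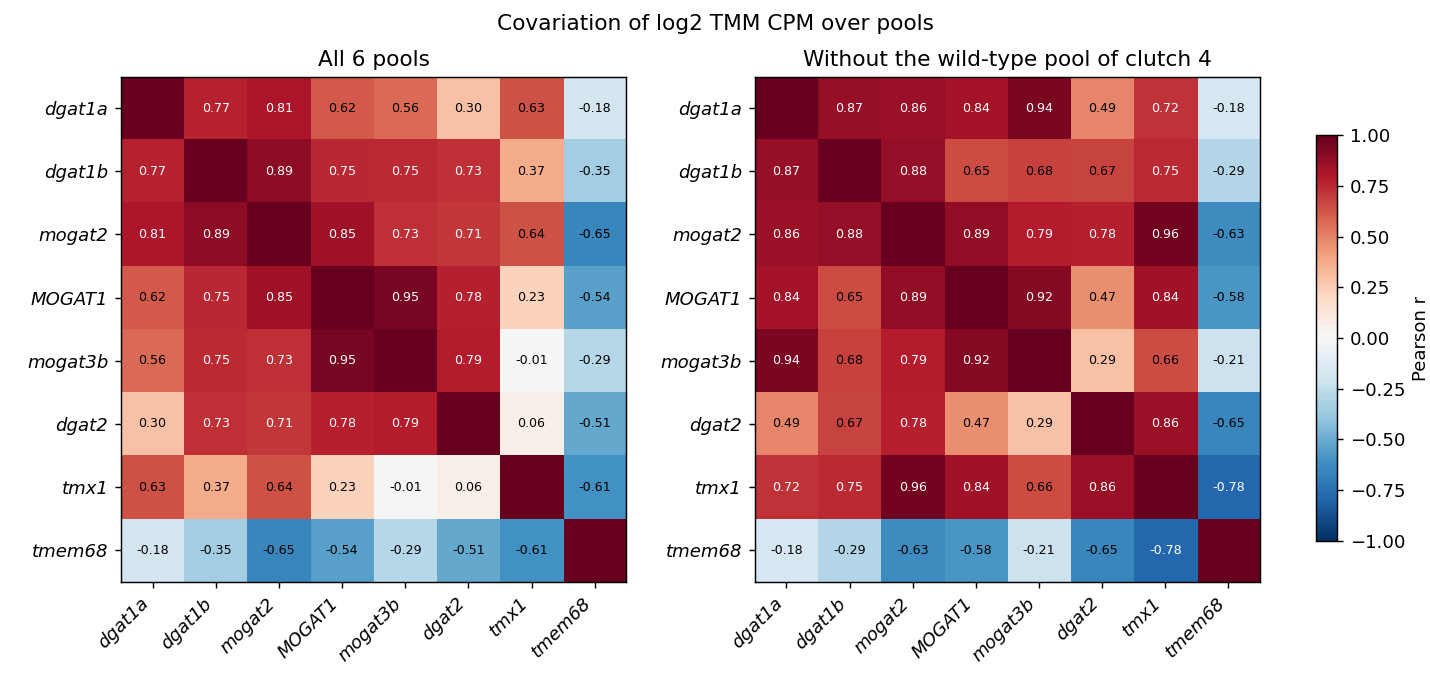
Pearson's r of log2 TMM-scaled CPM for each pair of genes (colour and printed value, from -1 in blue to 1 in red), over all 6 pools (left) and over the 5 pools left without the wild-type pool of clutch 4 (right). The block of positive values joins the DGAT and MOGAT genes, *tmem68* is negative with each other gene in both panels, and *tmx1* with *dgat2* moves from 0.06 to 0.86.

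With only 6 pools, many genes share a profile with any given gene. Of 19061 other genes with a mean of at least 1 CPM, 575 (3.02%) had an r of at least 0.9 with *dgat2*, 676 (3.55%) with *mogat2* and 141 (0.740%) with *tmem68*. The named genes most like *dgat2* were *c8a*, which encodes a complement component made by the liver, *sars2*, a mitochondrial seryl-tRNA synthetase, *rasa4*, a Ras GTPase-activating protein, *nagpa*, a lysosomal targeting enzyme, and *SNX13*, a sorting nexin. All of these had an r of at least 0.99. *c8a* itself had 12.4 CPM in the wild-type pool of clutch 4 and 18.1 to 30.8 CPM in the other pools, a narrower range than that of *dgat2*.

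For *mogat2* the most similar genes were *ctrb.3*, a chymotrypsinogen, and *cishb*, a cytokine-signalling inhibitor. *ctrb.3* ranged from 8.32 CPM in the wild-type pool of clutch 3 to 119 CPM in the mutant pool of clutch 2. For *MOGAT1* they were *itih3b.2*, an inter-alpha-trypsin inhibitor heavy chain, and *f7*, coagulation factor VII. The 2 genes most like *mogat3b* were *PIK3R4* and *serac1*, those most like *dgat1a* were *ugt5c3* and *slc52a3*, and those most like *dgat1b* were *prcp* and *ACSF3*. *TCAIM* and *WFS1* came closest to *tmem68*, and *KCNT1* and *nppal* to *tmx1*. Each of these had an r of at least 0.98.

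The marker sums that moved most between pools were those of the gut and pancreas. The 12 pancreatic acinar markers summed to 1119, 221 and 226 CPM in wild-type pools of clutches 2, 3 and 4 and to 1647, 259 and 720 CPM in mutant pools, and the 8 enterocyte markers to 771, 547 and 643 CPM and to 1557, 604 and 1042 CPM. Both sums were higher in the mutant pool of each clutch. Several members had a high r with both sums. The r of *mogat2* was 0.98 with the log2 acinar sum and 0.93 with the log2 enterocyte sum. For *dgat1a* these were 0.71 and 0.94, for *dgat1b* 0.84 and 0.88, for *MOGAT1* 0.87 and 0.80, and for *mogat3b* 0.73 and 0.73. At an unadjusted p under 0.05 with the block, 11 of 12 acinar and 7 of 8 enterocyte markers were higher in mutants, beside 5.14% of all tested genes. Without the block 0 of 12 and 2 of 8 were higher at such a p, beside 3.21% of all tested genes. Markers of 1 tissue are not separate observations. After adjustment edgeR called 1 acinar and 2 enterocyte markers with the block, beside 0.338% of all tested genes. DESeq2 called 4 and 5 with the block, beside 1.27% of genes, and 0 and 0 without it, beside 0.566%. Of 7 periderm and epidermis markers, 6 were lower at an unadjusted p under 0.05 with the block, beside 3.05% of all tested genes. Without the block 2 were lower at such a p, as were 452 of the 22762 tested genes. The sum of the 7 markers was 12683 to 15281 CPM in mutant and 16208 to 18669 CPM in wild-type pools. Of the 10 hepatocyte markers 4 were higher at such a p with the block, beside 5.14% of all tested genes. Without the block 2 were, beside 3.21%. Of the 9 YSL and liver lipoprotein genes 3 were higher with the block and 2 without it, beside the same shares. With the block, 0 of 9 muscle, 0 of 6 erythrocyte and 0 of 6 neuron markers had such a p in either direction. Of the 22762 tested genes, 1864 had it. After adjustment edgeR with the block called *apoa4b.2* of the YSL and liver genes (adjusted p = 0.0039), beside 0.338% of all tested genes. DESeq2 with the block called 3 hepatocyte markers, 3 YSL and liver genes (*apoa4b.2*, *mttp* and *apoeb*) and 1 periderm marker, beside 1.27% of genes. *dgat2* had an r of 0.91 with the log2 hepatocyte sum and of -0.94 with the log2 neuron sum. Without the wild-type pool of clutch 4 these were 0.65 and -0.81. Its r with the log2 sum of the 9 YSL and liver lipoprotein genes was 0.55, or -0.33 without that pool. With the acinar sum it was 0.76. The r with the neuron sum was also negative for *mogat3b* (-0.85), *MOGAT1* (-0.80), *dgat1b* (-0.74), *mogat2* (-0.64) and *dgat1a* (-0.24). Without the wild-type pool of clutch 4 these were -0.38, -0.54, -0.87, -0.84 and -0.57, so the value for *mogat3b* rested largely on that pool. What part tissue composition had in the differences of *dgat1a*, *mogat2*, *MOGAT1* and *mogat3b* was not tested.

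**Figure D5:**
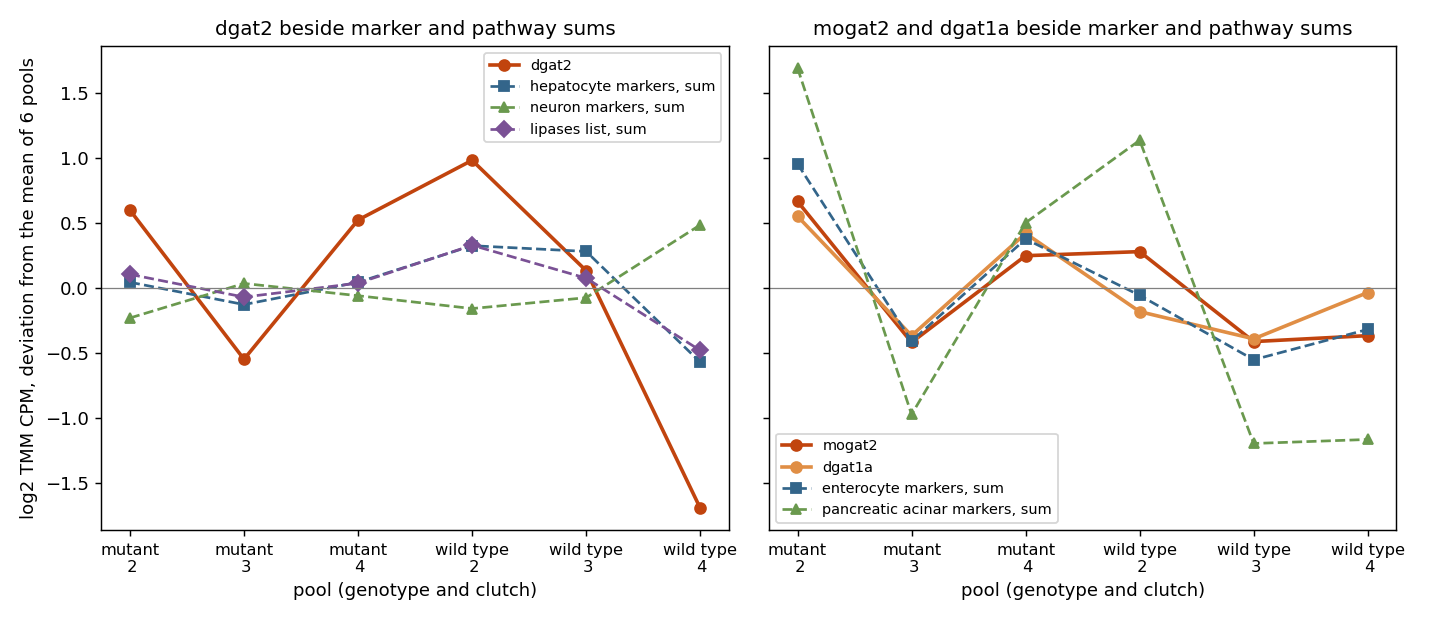
Deviation of log2 TMM-scaled CPM from the mean of the 6 pools (vertical axis) in each pool (horizontal axis), for *dgat2* beside the sums of hepatocyte and neuron markers and of the lipase list (left), and for *mogat2* and *dgat1a* beside the sums of enterocyte and pancreatic acinar markers (right). *dgat2* falls by 1.70 below its mean in the wild-type pool of clutch 4, where the hepatocyte sum is also lowest, and *mogat2* is highest in the mutant pool of clutch 2, where both marker sums are highest. The lipase list had the highest r with *dgat2* of all list sums (0.96, or 0.86 without the wild-type pool of clutch 4). It is a sum of 5 genes, whose single log2 fold changes ran from -0.03 for *mgll* to 0.53 for *PNPLA2*. The sum need not stand for each of them, and r for single lipases is not given. Among the sums not drawn beside *dgat2*, r ran from -0.66 for skeletal muscle to 0.76 for pancreatic acinar markers. For glycerol-3-phosphate and lysophosphatidate acyltransferases r was 0.70. Without the wild-type pool of clutch 4, r was 0.05 for muscle and 0.76 for these acyltransferases, beside 0.65 for the hepatocyte sum. Over all pools it was 0.55 for YSL and liver lipoprotein genes, 0.51 for lipoprotein assembly and 0.23 for *lpin1a*.

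Genes of the neighbouring steps were taken from lists drawn up with earlier results of these data known. In the steps before the DGAT reaction, 9 of 11 listed glycerol-3-phosphate and lysophosphatidate acyltransferases were found and tested. By edgeR 0 passed the adjusted p in either direction, with or without the block. Without the block 1 was higher at an unadjusted p under 0.05, beside 3.21% of all tested genes. DESeq2 without the block called that gene, *agpat9l* (adjusted p = 0.0137), beside 0.566% of genes. DESeq2 with the block called *agpat9l* too (adjusted p = 0.0041), beside 1.27% of genes. Their median log2 fold change was 0.12, and those with the smallest p were *agpat9l*, at 0.61 (standard error 0.13), *gpat4*, at 0.12, and *agpat3*, at -0.13. Of the lipins, which make diacylglycerol from phosphatidate, *lpin1a* was tested, at 0.46 (standard error 0.27). Among 7 acyl-CoA synthetases, which activate fatty acids for all these enzymes, edgeR called 1 higher with the block and 0 lower, beside the 0.338% of all tested genes given above. It was *acsl5*, at 0.80 (standard error 0.11, adjusted p = 0.041 by edgeR with the block), and without the block its adjusted p was 0.784. DESeq2 with the block called *acsl5* and also *acsl4a* (adjusted p = 0.0026), beside 1.27% of genes.

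Downstream, 4 genes of lipoprotein assembly were tested and edgeR called 0 in either direction. At an unadjusted p under 0.05, 1 was higher and 1 lower, beside 5.2% of all tested genes in either direction. DESeq2 called *apobb.2* without the block, beside 0.566% of genes, and *mttp* with it, beside 1.27%. The log2 fold change was 0.59 (standard error 0.17) for *mttp*, the triglyceride transfer protein, -1.21 (standard error 0.33) for *apobb.2*, an apolipoprotein B gene, and 0.07 for *sar1b*, a GTPase of transport vesicles. Among 7 lipid droplet genes, edgeR called 2 higher with the block and 0 lower, again beside 0.338%. These were *cidec*, which drives droplet fusion in mammals, at 1.23 (standard error 0.14, adjusted p = 0.0239), and *plin3*, a droplet coat protein, at 0.97 (standard error 0.12, adjusted p = 0.0328). By edgeR neither passed the adjustment without the block (adjusted p = 0.341 and 0.416), whereas DESeq2 called both without it, beside 0.566% of genes. With the block DESeq2 also called *cideb* (adjusted p = 0.0385), beside 1.27% of genes. Of 5 lipases, edgeR and DESeq2 called 0 with or without the block. Without the block 1 was higher at an unadjusted p under 0.05 by edgeR, beside 3.21% of all tested genes. *PNPLA2*, the adipose triglyceride lipase, was at 0.53, *pnpla3* at 0.31 and *lipea*, the hormone-sensitive lipase, at 0.24.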

How the data were processed

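RNA from 6 pools of mid-sections was made into poly(A) libraries without strand marks. The authors trimmed and mapped reads to GRCz11 with STAR 2.7.9a and quantified Ensembl genes with Salmon 1.10.1. The deposited estimated counts carry no scaling for depth. The deposited TPM were scaled by length and depth. Estimated counts were rounded and tested with edgeR 4.0.16 (TMM, filterByExpr, glmQLFit and glmQLFTest, genotype only), with Benjamini-Hochberg adjustment over 22762 genes. Standard errors and 95% intervals come from the quasi-likelihood F statistic.

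The clutch numbers pair the pools, since both genotypes of a number are siblings. Deviations from the genotype means correlated across genes at 0.351, 0.309 and 0.185 within clutches 2, 3 and 4, and at -0.299 to 0.0311 between clutches. The clutch block was tried as an alternative, with DESeq2 1.42.0, RLE factors, length offsets, no filter, limma 3.58.1 on log2 TPM with a pseudocount of 1 or 0.1, and each library left out. The block with length offsets and the block without each clutch, and wild-type means and marker correlations without 1 pool, were added after the data were seen. Scripts were tested on simulated data.

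The named genes are all 8 members, the 5 (*dgat2*) or 2 (others) symbol-named genes of at least 1 CPM with the highest r, and list genes past an adjusted p of 0.05 or else the 3 of smallest p. Members and lists were chosen with earlier results of these data known. All 8 symbols matched the gene table of GRCz12tu, used for chromosomes and gene order only. Genome, promoter and protein sequences were not used here.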

Additional observations from a re-analysis of the deposited data

How the results depend on the processing

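No alternative brought any of the 8 genes past an adjusted p of 0.05. The log2 fold changes of *dgat1a*, *dgat1b*, *mogat2*, *MOGAT1* and *mogat3b* stayed positive under all 19 alternatives. With each library left out they ranged from 0.28 to 0.68 for *dgat1a*, 0.02 to 0.27 for *dgat1b*, 0.08 to 0.62 for *mogat2*, 0.36 to 0.79 for *MOGAT1* and 0.32 to 0.62 for *mogat3b*. *dgat2* ranged from -0.34 to 0.79. With the replicate block it was 0.74, 0.86 and -0.53 with clutch 2, 3 and 4 left out. *tmem68*, close to 0 throughout, ranged from -0.098 to 0.10 with each library left out, and turned negative with length offsets (-0.054), with the block and length offsets (-0.051), with the block and clutch 2 left out (-0.043) and with limma on log2(TPM + 1), with or without the filter (-0.056), and log2(TPM + 0.1) (-0.070). *tmx1* ranged from -0.24 to 0.079 and was 0.019 with the block and clutch 4 left out. Over all genes, edgeR called 3, against 77 with the replicate block (paired by clutch), 160 with DESeq2, 358 with DESeq2 and the block, 0 with length offsets, 9 with no filter and 6 with limma on log2(TPM + 0.1). With the block and length offsets it called 10, and with the block and clutch 2, 3 or 4 left out 46, 94 or 123. With each library left out the count was 0 to 4. Genes at an unadjusted p under 0.05 numbered 1183, and 1864 with the block. Without the wild-type pool of clutch 4 the ratio of *dgat2* to *dgat1a* plus *dgat1b* turned from 0.13 to -0.64 (log2, mutant minus wild type) and that of *mogat2* to *dgat2* from -0.0068 to 0.64. The SD of the wild-type pools for these log2 ratios was 1.39 and 1.12. It includes that same pool, so it cannot show whether these moves were small. The median r over the 28 pairs was 0.45 to 0.70 under all alternatives.

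Counts of 155 to 2058 per gene leave counting error small, and 3 pools per genotype set the precision. Exact tests cannot give a p under 0.1.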
